A study of Bos taurus with 96 samples.

Results

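The expression of 10 chemokine genes was followed over 5 fat depots and the longissimus dorsi muscle (LD) of cattle. The genes are CXCL2, CXCL3, CXCL5, CXCL10, CXCL12, CXCL14, CCL2, CCL5, CCL8 and CCL21. The rule that chose them uses gene names and no measured values, though earlier results of these data were known. Probes were assigned to them through the bovine RefSeq accession that the array design gives for each probe, or through the probe lists of the study. This gave 24 probes of the 43653 that are not controls. Of these, 22 probes for 9 of the 10 genes were among the 34227 probes tested, which represent 10653 named genes. CXCL5 and a second CXCL2 probe lie outside the tested set, and their tests come from a fit over all 43653 probes.

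Total RNA of 96 samples was hybridised to one-colour Agilent arrays, 4 to a slide. Fat came from inside the muscle (IMF), under the skin of the rump (SC), between muscles (Inter), around the kidney (Kid) and from the omentum (Omen). Each depot had 12 arrays, 4 per breed, the breeds being Angus, Hereford and the cross Wagyu x Angus. LD was represented by 36 arrays, 12 per breed. All fat samples and 24 LD samples are labelled as pasture, and 12 LD samples, 4 per breed, as supplement. The methods place this difference in feeding just after weaning, ahead of the feedlot. The design text gives an age of 26 months, and every label gives 259 days in a feedlot. According to the methods the depots were taken from the same steers and part of the LD samples, of both diets, from an earlier kill, to which the age given above need not apply. The labels do not tie arrays to steers or kills, so arrays were treated as independent. IMF was dissected out of muscle and carries myofibre RNA.

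Chemokines are small secreted proteins that draw leukocytes and other cells along a gradient through receptors with 7 membrane passes. The CXC ligands with an ELR motif, among them CXCL2, CXCL3 and CXCL5, act on CXCR2 and attract neutrophils, and several CC ligands attract monocytes, eosinophils and T cells. In adipose tissue they are made by adipocytes, stromal cells, endothelium and resident leukocytes, and CCL2 is known for the recruitment of macrophages to expanding fat. Other members serve homeostasis, such as CXCL12 in the retention of haematopoietic cells and CCL21 in the entry of cells into lymphatics.

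A level is log2 of the background-subtracted signal of a probe minus the 75th percentile of its array, so that 0 is the 75th percentile and a difference of 1 is a change of 2-fold. Levels are compared between tissues within a probe and not between genes. Each gene is given by the brightest of its tested probes. Groups were compared with limma, with Benjamini-Hochberg adjustment across the tested probes, and an adjusted p under 0.05 was taken as past the threshold. The number of arrays limits the precision. Since these are whole tissue samples, fewer cells of a type and less RNA per cell cannot be told apart.

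The share of probes well above background had a median of 76.9% on SC, 75.1% on LD and 82.7 to 83.8% on the other depots. The arrays were scanned on 3 days, which followed the depots closely: all IMF arrays on the third, 11 of 12 SC arrays on the first, all Inter arrays on the second, and Kid, Omen and LD over several. The sum of adipocyte markers (9 of 10 listed genes, sums of linear levels with 1 at the 75th percentile) was 173 to 668 on IMF and at least 440.8 on the other depots, against 7.53 to 99.6 on LD. Skeletal myofibre markers (10 of 13) summed to 982 to 2847 on IMF and at most 2.54 on SC.

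The values of 2 of the 96 arrays went against their labels. Over all tested probes, each array was correlated with the mean of every tissue, leaving the array itself out. The array labelled Kid, Hereford, at position 2 of slide 4 was closer to Inter (r = 0.991) than to Kid (r = 0.982). Its neighbour at position 3, labelled Inter, Angus, was closer to Kid (r = 0.982) than to Inter (r = 0.981). All other arrays were closest to their own tissue. In addition, 1 Inter array held myofibre markers at a sum of 811, and 1 Kid array (Hereford, slide 21) was least like its depot (r = 0.958), with a sum of interferon response genes of 38.8 against a Kid median of 4.25. These arrays were kept, and the results that rest on them are also given without them.

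**Figure D1:**
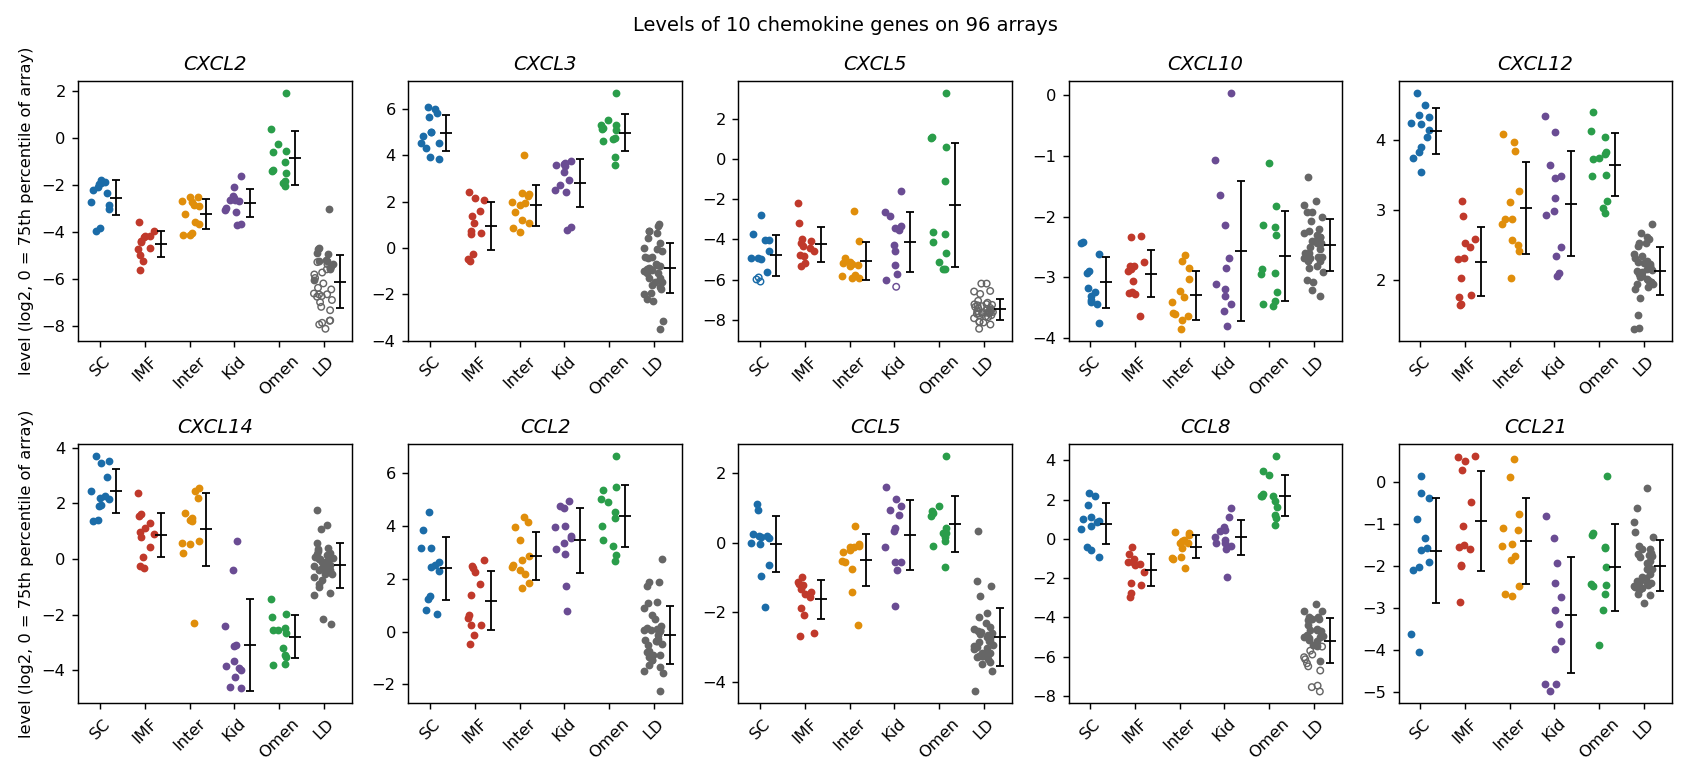
Level of each gene on each of the 96 arrays (y axis, log2 relative to the 75th percentile of the array) by tissue (x axis), with open points where the probe was not well above background and bars for the mean ± SD. CXCL3 reaches 3.84 or more on every SC array and stays at or below 2.44 on every IMF array, while CXCL14 lies between -3.83 and -1.45 on Omen.

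Compared with SC, most of the 9 tested chemokine genes were lower in IMF and 5 in Inter, 4 were lower in Kid, and Omen had genes in both directions. In IMF 17 of the 22 member probes fell and 0 rose, for 7 of 9 genes (CXCL2, CXCL3, CXCL12, CXCL14, CCL2, CCL5 and CCL8). Of all tested probes 64.2% passed the threshold in this comparison, 33% being lower in IMF and 31.2% higher. The median difference of the member probes was -1.44, against -0.0029 over all tested probes. In Inter 12 member probes fell and 0 rose, for 5 genes, at a background of 48.8% (27.2% lower, 21.6% higher), with a median of -0.68 against -0.047. In Kid 11 probes fell and 1 rose, for 4 genes, all of which fell, at 41.7% (22.2% lower, 19.4% higher), with a median of -0.81 against -0.0069. CXCL12 alone has 7 of the 22 probes, and all 7 fell in Kid. In Omen 6 probes rose and 4 fell, at 45.7% (20.5% higher, 25.2% lower), with a median of 0.06 against -0.031. There, 3 genes rose (CXCL2, CCL2 and CCL8) and 2 fell (CXCL12 and CXCL14).

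The 4 comparisons share the 12 SC arrays. Against each other, IMF differed from Inter in 16 member probes (background 62.7%), from Kid in 16 (55.8%) and from Omen in 19 (56.2%), while Inter and Kid differed in 6 (15.4%), Inter and Omen in 8 (13.6%) and Kid and Omen in 7 (12.1%). Without the 2 arrays of slide 4 Inter and SC differed in 12 member probes (16535 of all 34227), Kid and SC in 13 (14216), Inter and Kid in 7 (7044) and Inter and Omen in 11 (5088). Levels of the 12 IMF and 12 SC arrays did not overlap for 5 of 22 member probes, where 14.9% of all tested probes do not overlap. The corresponding numbers were 4 probes for Kid and SC (3.52% of all), 1 for Omen and SC (3.97%) and 10 for IMF and Omen (8.44%). Over the 60 fat arrays, with breed in the fit, 19 of 22 member probes and 8 of 9 genes differed between depots, at a background of 87.2%. CXCL10 did not pass (adjusted p = 0.0752).

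Scan day and depot cannot be told apart in the comparisons of IMF, Inter or Omen with SC, since no day held 2 or more arrays of both depots. With the day as a block over all 96 arrays, where LD, Kid and Omen link the days, CXCL3 in IMF differed from SC by -3.59 (adjusted p = 1.36e-09), CXCL2 by -1.96, CXCL12 by -1.74, CCL8 by -1.93, CXCL14 by -1.65 and CCL5 by -1.26, all past the threshold. In Omen CXCL14 differed by -5.36 (adjusted p = 2.73e-14), CCL2 by 2.40 and CCL8 by 1.79, also past it. The calls of CCL8 in Inter minus SC ended there (difference -1.13, adjusted p = 0.0565), as did those of CCL2 in IMF and CXCL12 in Omen. With the day as a block among the arrays of each pair only, which rests on 1 SC array, IMF minus SC kept CXCL3, CXCL12 and CXCL14 and lost CXCL2 (difference -1.68, adjusted p = 0.0795), CCL5 (-1.75, 0.0795), CCL8 (-2.52, 0.0608) and CCL2 (-1.47, 0.415). Omen minus SC kept CXCL14 and lost CXCL2 (2.15, adjusted p = 0.205), CCL2 (1.93, 0.383), CCL8 (1.38, 0.508) and CXCL12 (-0.40, 0.616).

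**Figure D2:**
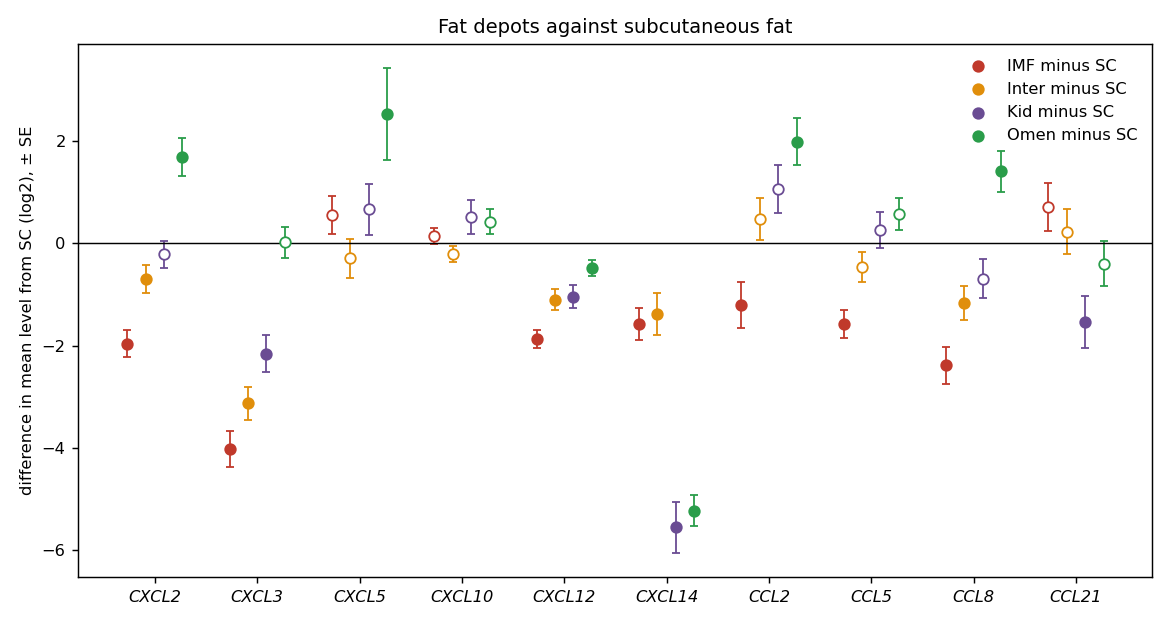
Difference in mean level of each depot from SC (y axis, log2, error bars ± SE of the fit) for the 10 genes (x axis), with filled points where the adjusted p is under 0.05 and open points elsewhere. CXCL14 is lower than in SC in all 4 depots, at -5.55 in Kid and -5.23 in Omen, and CXCL2, CXCL5, CCL2 and CCL8 pass the threshold above SC in Omen.

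The CXCR2 ligands are given first. CXCL3, a neutrophil attractant of the GRO group, had levels from 3.84 to 6.11 on the 12 SC arrays, with a median of 4.93. On Omen it ranged from 3.59 to 6.71, with a median of 5.11. On Kid it lay between 0.76 and 3.76 with a median of 3.1. SC and Omen overlapped over nearly all of their range, and every Kid array lay below every SC array. On Inter CXCL3 ranged from 0.68 to 4.00 (median 1.89). On IMF its range was -0.54 to 2.44, with a median of 0.90. No IMF array reached the lowest SC or Omen array, while the IMF, Inter and Kid arrays overlapped.

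CXCL3 was 16.2-fold lower in IMF than in SC (difference -4.02, adjusted p = 8.08e-10, SE 0.35). Inter was 8.73-fold lower than SC (difference -3.13, SE 0.33, adjusted p = 1.08e-07), and Kid 4.47-fold lower (difference -2.16, SE 0.36, adjusted p = 3.68e-05). Omen and SC differed by 0.02 (SE 0.31, adjusted p = 0.968). In the order of means Omen and SC came first, then Kid, Inter and IMF. Of these neighbours, Omen and SC, and Kid and Inter (adjusted p = 0.0797), did not differ past the threshold. Inter and IMF did (adjusted p = 0.041), but without the 2 arrays of slide 4 the adjusted p was 0.0777, and with the day as a block over all 96 arrays the difference turned to 0.22 (adjusted p = 0.726). Within single scan days CXCL3 was lower by 4.13 in 12 IMF than in 10 Omen arrays and lower by 1.93 in 5 Kid than in 11 SC arrays.

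CXCL2, a close paralog that also acts on CXCR2, was higher in Omen than in each of the other fat depots. Its levels ranged from -2.04 to 1.91 on Omen (median -1.20), from -3.97 to -1.82 on SC (median -2.30) and from -5.64 to -3.57 on IMF (median -4.43). On Kid it ranged from -3.70 to -1.62. Omen overlapped SC and Kid at its lower end and lay wholly above IMF. The Kid minus Omen difference was -1.92 (adjusted p = 0.00149). With the day as a block among the compared arrays only, this call ended (-1.49, adjusted p = 0.139). So did that of Inter minus Omen (-1.62, adjusted p = 0.172). CXCL2 was 3.26-fold higher in Omen than in SC (difference 1.70, SE 0.37, adjusted p = 0.000643) and 3.90-fold lower in IMF (difference -1.96, SE 0.26, adjusted p = 4.67e-07). Inter was lower than SC by a difference of -0.70 (adjusted p = 0.035), a call that ended without the Inter array that held myofibre markers (adjusted p = 0.0608). The CXCL2 probe used was named from the probe lists of the study. A second probe, named by accession, gave Omen at -1.33 and SC at -3.37, and its deviations within depots followed those of the first with r = 0.713 over 60 arrays. Bovine CXCL2, CXCL3 and CXCL1 are near-identical copies in part, and the share of signal that one takes from another was not tested.

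CXCL5, the third CXCR2 ligand, was low in most fat and uneven in Omen. On Omen it ranged from -5.46 to 3.31 with a median of -3.68, and 4 of the 12 arrays were above 0. In SC, IMF, Inter and Kid 0 arrays were above 0, and the highest array of these was at -1.57, in Kid. The 4 high Omen arrays came from all 3 breeds. Omen was higher than SC by 2.53 (SE 0.90, adjusted p = 0.0261 over all 43653 probes), while IMF, Inter and Kid differed from SC by 0.55, -0.29 and 0.67 (adjusted p from 0.204 to 0.553). The CXCL5 probe was not well above background on any of the 36 LD arrays. Against the dimmest signal that still counted as well above background, read on each LD array and averaged (a level of -5.83), Omen was at least 11.8-fold and IMF at least 2.99-fold higher.

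CXCL14, a chemokine of epithelia and fat that attracts monocytes, had the largest depot difference among the 10 genes. On the 12 SC arrays its levels ranged from 1.36 to 3.72, with a median of 2.23. Inter reached from -2.31 to 2.55 (median 1.38) and IMF from -0.31 to 2.36 (median 0.93). Kid ranged from -4.63 to 0.64, with a median of -3.77, and Omen from -3.83 to -1.45, with a median of -2.60. SC, Inter and IMF were high, Kid and Omen low, and no Kid or Omen array reached the lowest SC array. CXCL14 was 46.9-fold lower in Kid than in SC (difference -5.55, SE 0.50, adjusted p = 1.14e-08) and 37.6-fold lower in Omen (difference -5.23, SE 0.30, adjusted p = 5.56e-12). In IMF it was 2.96-fold lower (difference -1.57, SE 0.31, adjusted p = 0.00011), and in Inter 2.60-fold lower (difference -1.38, SE 0.42, adjusted p = 0.00932). The Inter call ended in the deposited table, which is not scaled between arrays (-0.39, adjusted p = 0.35). Kid and Omen did not differ past the threshold (adjusted p = 0.72), nor did Inter and IMF (adjusted p = 0.71).

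LD lay between the high and the low depots, with CXCL14 from -2.35 to 1.76 (median -0.17). It was lower in LD than in IMF by 1.10 (adjusted p = 0.000201), and higher in LD than in Omen, where the difference was -2.57 (adjusted p = 6.92e-13). The contrast of high and low depots was also seen within a scan day for some pairs. Kid minus SC was at -6.31 (5 and 11 arrays), IMF minus Omen at 3.67 (12 and 10 arrays) and Inter minus Kid at 3.91 (12 and 6 arrays). For IMF minus Kid the difference shrank from 3.98 to 1.25 with the day as a block, which rests on 1 Kid array.

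The highest Kid and the lowest Inter array for CXCL14 were the 2 arrays of slide 4 that went against their labels. Without them Kid ranged from -4.63 to -0.38 and Inter from 0.21 to 2.55, and the depots no longer overlapped. The Inter minus Kid difference was then 4.82 (adjusted p = 1.74e-07), against 4.17 (SE 0.58, adjusted p = 0.000266) with them. The same 2 arrays were the lowest Kid array and the highest Inter array for CXCL3, at 0.76 and 4.00. They were the lowest Kid array for CCL2 (0.79) and CCL8 (-1.95) as well, and the highest Inter array for CCL2 (4.31), CCL21 (0.53) and CXCL5 (-2.60). Whether these 2 samples were exchanged was not tested.

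**Figure D3:**
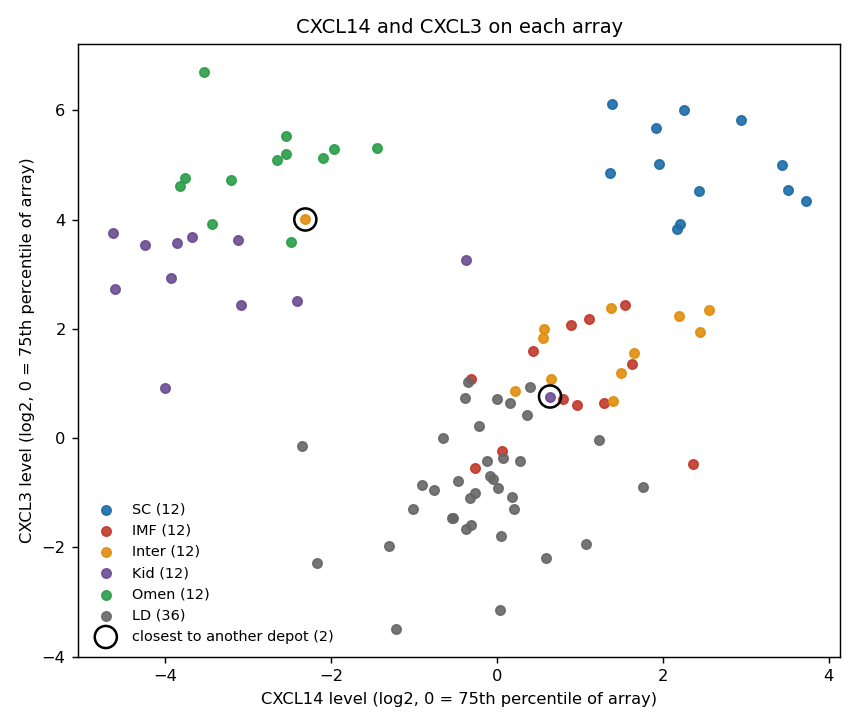
Level of CXCL14 (x axis) and CXCL3 (y axis) on each of the 96 arrays, both log2 relative to the 75th percentile of the array, coloured by tissue. SC is high for both genes, Omen is high for CXCL3 and low for CXCL14, and the 2 ringed arrays of slide 4, an Inter array at -2.31 for CXCL14 and a Kid array at 0.64, lie among the arrays of other depots.

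CXCL12, the stromal ligand of CXCR4, was lower in IMF, Inter and Kid than in SC by its brightest probe. Its levels on the 12 SC arrays ranged from 3.55 to 4.68 (median 4.19), on Omen from 2.96 to 4.41 (median 3.74) and on IMF from 1.65 to 3.13 (median 2.31). Inter and Kid were intermediate and wide, with means of 3.03 ± 0.65 and 3.1 ± 0.76 (SD, n = 12). IMF lay wholly below SC, and the other depots overlapped SC. The IMF minus SC difference was -1.87 (SE 0.17, adjusted p = 9.16e-10), a fall of 3.66-fold. Inter differed from SC by -1.10 (adjusted p = 0.000105) and Kid by -1.04 (adjusted p = 0.000814). Both calls ended in the deposited table, which is not scaled between arrays, at -0.10 (adjusted p = 0.665) and -0.09 (adjusted p = 0.748), where the median of all probes shifts by 0.98 and 0.83. The dimmest CXCL12 probe gave -0.23 for Inter (adjusted p = 0.424), the other probes passed for Inter, and all passed for IMF and Kid. Omen differed by -0.48 (adjusted p = 0.0142), but 4 of the 6 other probes did not pass (adjusted p from 0.0976 to 0.724), and the call also ended with quantile normalization (adjusted p = 0.125) and with the day as a block over all arrays (adjusted p = 0.294).

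In LD the mean of CXCL12 was 2.13 ± 0.34 (SD, n = 36), and IMF was not distinguished from it (difference 0.13, SE 0.13, adjusted p = 0.36). CXCL12 was read by 7 probes, whose deviations within depots correlated with r from 0.369 to 0.989. The 3 probes named from the study's lists alone gave Kid and Inter within 0.1 of each other. Of those with the RefSeq accession, 1 probe gave Kid at 0.07 and Inter at 0.84, and a second gave 0.24 and 1.03. So the place of Kid relative to Inter differed between probes.

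The receptors of CXCL12 were read as well. CXCR4, its signalling receptor, was higher than in SC in IMF (difference 1.59), Inter (2.13), Kid (1.84) and Omen (2.71), all past the threshold. ACKR3, which binds and removes CXCL12, fell in IMF by 1.77 and differed from SC by 0.21 in Inter, -0.29 in Kid and -0.12 in Omen, without passing.

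The monocyte attractants CCL2 and CCL8, which act on CCR2 and related receptors, had their highest mean in Omen and their lowest in IMF among the fat depots. CCL8 ranged from 0.69 to 4.25 on Omen (median 2.17), from -0.94 to 2.35 on SC (median 0.89) and from -2.94 to -0.41 on IMF (median -1.30). Omen lay wholly above IMF and overlapped SC. CCL8 was 5.20-fold lower in IMF than in SC (difference -2.38, SE 0.36, adjusted p = 3.72e-06) and 2.66-fold higher in Omen (difference 1.41, SE 0.40, adjusted p = 0.00594). Inter was lower than SC (difference -1.17, adjusted p = 0.00523), and Kid differed by -0.69 without passing (adjusted p = 0.143). In the deposited table the Inter call ended (-0.17, adjusted p = 0.639). IMF minus Inter was -1.21 for CCL8 (adjusted p = 0.000605) and -1.69 for CCL2 (adjusted p = 0.000743), and both calls ended with the day as a block over all arrays (-0.80, adjusted p = 0.192, and -1.19, adjusted p = 0.0892). For CCL8 the IMF minus Omen difference was -3.79 (adjusted p = 5.04e-09), and -3.89 on the scan day that both shared. The 2 CCL8 probes followed each other with r = 0.967.

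CCL2 ranged from 2.68 to 6.65 on Omen (median 4.39), from 0.66 to 4.52 on SC (median 2.49) and from -0.48 to 2.70 on IMF (median 1.01). Omen and IMF met only at their ends, and SC overlapped both over a wide range. Omen was 3.96-fold higher than SC (difference 1.99, SE 0.46, adjusted p = 0.00112), and IMF 2.32-fold lower (difference -1.21, SE 0.45, adjusted p = 0.0217). The IMF call ended with the day as a block over all arrays (difference -0.71, adjusted p = 0.324). Kid was above SC by 1.06, short of the threshold (adjusted p = 0.0739). It was past it by the other CCL2 probe (difference 1.28, adjusted p = 0.0377), with normexp background correction (1.12, adjusted p = 0.0325) and without the 2 arrays of slide 4 (difference 1.30, adjusted p = 0.0185). In the order of means, Omen, Kid, Inter and SC did not differ from their neighbours past the threshold.

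CCL5, an attractant of T cells and other leukocytes that is made largely by T and NK cells, had its lowest mean among the fat depots in IMF. Its range was -2.67 to -0.98 on IMF (median -1.44), against -1.86 to 1.11 on SC (median 0.14) and -0.71 to 2.49 on Omen (median 0.35). The IMF and Omen arrays did not overlap. CCL5 fell by 1.58 in IMF against SC (SE 0.27, adjusted p = 1.81e-05), and SC, Inter, Kid and Omen did not differ from their neighbours in the order of means. Against Inter the IMF difference was -1.12 (adjusted p = 0.00065), and the call ended with the day as a block over all arrays (difference -0.72, adjusted p = 0.155). With the day as a block among the compared arrays only, the call against Kid ended too (-1.96, adjusted p = 0.166). Of the T and NK cell markers (11 of 12 genes measured) 1 rose and 2 fell in IMF, NKG7 (difference -1.37) and GZMB (-1), with a median of 0.00, where 64.2% of all tested probes passed.

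CXCL10, an interferon-induced ligand of CXCR3, differed little between depots. Medians ran from -3.37 on Inter to -2.88 on IMF, and no pair of neighbouring depots differed past the threshold. Kid was the most spread, from -3.80 to 0.04, and its highest array was the Kid array with the high sum of interferon response genes. Without it the Kid range was -3.80 to -1.08 and the Kid minus SC difference 0.28 (adjusted p = 0.407), against 0.52 (adjusted p = 0.225) with it. The other 2 CXCL10 probes were dimmer, and 1 of them put IMF below SC (difference -0.84, adjusted p = 0.0525) where the probe used gave 0.15 (adjusted p = 0.441). That probe was well above background on only 4 of 12 IMF and 4 of 12 SC arrays. It passed for Inter minus SC (difference -0.93, adjusted p = 0.0149), with 3 of 12 Inter arrays well above background. The probe used passed there with normexp background correction (difference -0.48, adjusted p = 0.000686).

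CCL21, the ligand of CCR7 that lymphatic endothelium secretes, was low in Kid. It ranged from -4.98 to -0.81 on Kid (median -3.21), from -4.04 to 0.12 on SC (median -1.60) and from -2.86 to 0.62 on IMF (median -1.28). These ranges overlapped. Kid was 2.88-fold lower than SC (difference -1.53, SE 0.51, adjusted p = 0.019) and 3.38-fold lower than Inter (difference 1.76 for Inter minus Kid, adjusted p = 0.016). The first call ended when day was a block among the Kid and SC arrays alone (difference -0.99, adjusted p = 0.199). With slide as a random block neither call held (differences -1.44 and 1.79, both with an adjusted p of 0.0591). IMF differed from SC by 0.71 (adjusted p = 0.191). The summed level of lymphatic endothelium markers (4 of 6 genes) was 0.823 to 9.37 on Kid, 3.61 to 10.2 on Inter, 1.36 to 6.19 on IMF and 0.99 to 4.09 on SC. In IMF against SC, where 64.2% of all tested probes passed, 2 of the 4 did, PROX1, a regulator of lymphatic identity that skeletal muscle also expresses (difference 3.68), and RELN (2.45), while PDPN differed by 0.34 and LYVE1 by -0.40. In Kid against SC PROX1 rose (difference 0.99) and PDPN fell (-0.75).

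IMF samples contain muscle, so the low values in IMF were set beside a mix. From 2726 probes more than 4-fold higher in LD than in SC, the muscle share of the IMF arrays was estimated at 27.3% on average, from 8.25 to 46.8%. Skeletal myofibre markers alone give a larger share, with a median sum of 2034 on IMF, 4615 on LD and 1.92 on SC. The mix was not repeated at that share. The SC and LD means were mixed on the linear scale at the share of each array. IMF remained below this mix by 3.74 for CXCL3 (0.96 measured, 4.69 mixed). For CCL8 the measured level was -1.60 and the mix 0.63, a difference of -2.22. CXCL2 lay below the mix by 1.69, with CXCL12 at -1.56, CXCL14 at -1.38, CCL5 at -1.37 and CCL2 at -1.28 relative to it. CXCL10 (-0.11), CCL21 (0.44) and CXCL5 (0.61) were nearer to the mix. These are differences between means, with no test, and the mix takes the fat in IMF to be like SC.

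**Figure D4:**
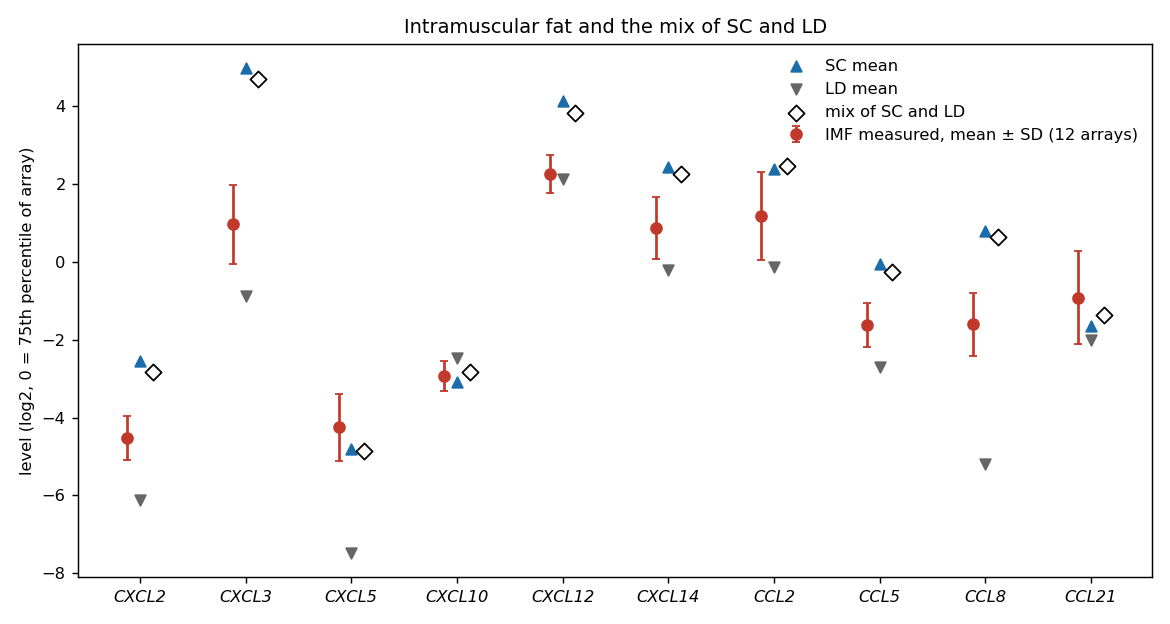
Mean level of each gene (x axis) in SC, LD and IMF and in the mix of SC and LD at the muscle share of each IMF array (y axis, log2 relative to the 75th percentile of the array), with bars for the SD of the 12 IMF arrays. Measured IMF lies farthest below the mix for CXCL3, at 0.96 against 4.69, and above it for CCL21 and CXCL5.

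Markers of cell types were set beside the same comparison, in which 64.2% of all tested probes passed (33% lower). In IMF against SC all 9 measured macrophage markers of 12 fell, with a median of -1.83, led by CD163 (-4.53) and MSR1 (-2.37), both scavenger receptors. The summed level of macrophage markers was 10 to 49.3 on IMF and 44.9 to 228 on SC. All 4 measured neutrophil markers of 8 fell (median -2.08), among them S100A8 (-3.60) and S100A12 (-2.71), and their sum was 0.884 to 3.17 on IMF and 4.37 to 18.1 on SC. Of 8 stromal markers 7 fell and 1 rose, with COL1A1 at -1.58 and DPP4 at -1.17. All 9 adipocyte markers fell as well (median -1.35), CFD by 1.66 and LEP by 1.65. Endothelial CLDN5 fell by 1.11 and CDH5 by 1.08, with 4 of 7 markers lower and 0 higher. Of 7 measured B and plasma cell markers 4 fell and 0 rose, with CR2 at -1.53 and JCHAIN at -1.04. Of 5 measured mesothelial markers 2 rose and 1 fell, with KRT18, a keratin of simple epithelia, at 4.83 and UPK3B at -0.84.

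In Omen against SC, where CCL2, CCL8 and CXCL2 rose, 45.7% of all tested probes passed (20.5% higher, 25.2% lower), and the lists are to be read against that. Of the mesothelial markers 2 rose, MSLN (difference 3.02) and KRT18 (2.52), and 2 fell, KRT8 (-0.30) and KRT19 (-0.48), and their sum was 6.70 to 25.1 on Omen and 11.8 to 21.8 on SC. T and NK cell markers rose in 5 and fell in 3 of 11 cases, stromal markers fell in 6 of 8, and lymphatic markers rose in 2 of 4. Macrophage markers fell in 1 of 9 cases and rose in 0, B and plasma cell markers fell in 2 of 7, and 0 of 4 neutrophil markers passed. The part of these cells in the chemokine differences of IMF and Omen was not tested.

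Between fat and LD, 18 of 22 member probes differed for IMF (15 higher and 3 lower in IMF, at a background of 75.3%, with 36.1% higher and 39.2% lower), and 19 for SC (17 higher and 2 lower in SC, at 82.9%, with 40.4% higher and 42.5% lower). Inter differed from LD in 22 (background 83.8%), Kid in 18 (80.2%) and Omen in 17 (82.1%). CCL8 was low in LD, and its 2 probes differed in the size of the gap. By the brighter probe it ranged on LD from -7.78 to -3.34 with a median of -5.00, and was well above background on 25 of 36 arrays. All fat arrays lay above all LD arrays for this probe. Omen was 166-fold higher than LD by the fit (difference 7.38, adjusted p = 1.12e-24), and IMF 12-fold (difference 3.59, adjusted p = 2.82e-13). The second CCL8 probe, well above background on all 36 LD arrays, gave 25-fold for Omen (difference 4.64, adjusted p = 1.78e-27) and 2.55-fold for IMF (difference 1.35, adjusted p = 1.45e-13). By that probe IMF reached down to -3.62 and LD up to -3.45, so that they overlapped. CXCL3 on LD ranged from -3.49 to 1.02 (median -0.91), below every SC and Omen array, and overlapped IMF, Inter and Kid. The probe of CXCL2 was well above background on only 13 of 36 LD arrays. CXCL10 went the other way, with IMF below LD (difference -0.47, adjusted p = 0.00192), which ended within the shared scan day (difference 0.00, 12 and 8 arrays).

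Breed was tested in fat and in LD separately. Over the 60 fat arrays 0 of 22 member probes differed between the 3 breeds in the limma fit with depot, at a background of 3.2%, and 2 had an unadjusted p under 0.05. The dependence of depot differences on breed gave 0 member probes, as it gave 0 of all 34227 tested probes (0%), with 1 member probe at an unadjusted p under 0.05. Over fat the mean level of CXCL3 was 2.99 on Angus arrays, 2.78 on Hereford arrays and 3.57 on those of the cross (SD 1.5, 2.26 and 1.76, n = 20), and those of CCL2 were 2.77, 2.48 and 3.29. In LD 6 of 22 member probes passed, at a background of 25.3%: both CCL2 probes, 2 of 3 for CXCL10, 1 of 2 for CCL8 and 1 of 7 for CXCL12. The brightest probe passed for CCL2, CCL8 and CXCL10. A difference between fat and LD in the effect of breed was not tested.

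CCL2 in LD ranged from -0.47 to 2.74 in Hereford (median 0.55), from -2.26 to 0.90 in Angus (median -0.64) and from -1.49 to 1.74 in Wagyu x Angus (median -0.80), with overlap (adjusted p = 0.00584). CCL8 ranged from -5.49 to -3.34 in Hereford, with a median of -4.12, against medians of -5.22 in Angus and -5.80 in Wagyu x Angus (adjusted p = 0.00899). This CCL8 probe was well above background on 11, 9 and 5 of 12 arrays in that order, and the second probe, above it on all 36, gave means of -4.01, -4.07 and -4.15 (adjusted p = 0.708). CXCL10 had medians of -2.25, -2.68 and -2.55 in the same order (adjusted p = 0.0405). By the brightest probes Hereford was highest for all 3 genes. On pasture LD alone CCL2 passed (adjusted p = 0.0275), and CCL8 (adjusted p = 0.0868) and CXCL10 (adjusted p = 0.131) did not. Scan day and slide moved with breed here: of 9 slides with LD arrays 7 held LD of 1 breed. Within the second day CCL2 was at 1.49 in 4 Hereford and -0.35 in 8 Angus arrays, and within the first at 0.47 in 8 Hereford and -0.20 in 8 Wagyu x Angus arrays. With the day as a block CCL2 passed (adjusted p = 0.0311) and CCL8 (adjusted p = 0.057) and CXCL10 (adjusted p = 0.089) did not. With slide as a random block 0 member probes and 15 of all 34227 tested probes passed. The adjusted p-values of the 3 genes were then 0.423, 0.537 and 0.68.

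**Figure D5:**
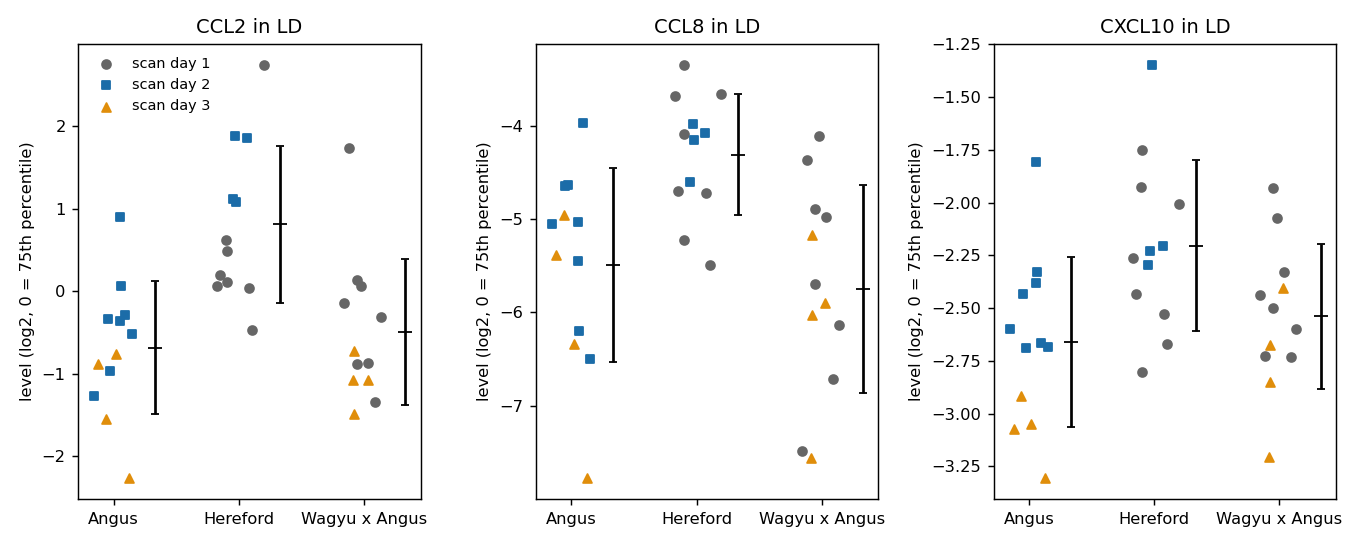
Levels of CCL2, CCL8 and CXCL10 on the 36 LD arrays (y axis, log2 relative to the 75th percentile of the array) by breed (x axis), with symbols for the scan day and bars for the mean ± SD of 12 arrays. Hereford has the highest mean for each probe shown, and the 4 Angus and 4 Wagyu x Angus arrays of the third day have means of -1.36 and -1.09 for CCL2.

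In supplement against pasture in LD, with breed in the fit, 2 of 22 member probes passed, at a background of 11.2%. These were the dimmest CXCL12 probe (difference 0.49, adjusted p = 0.00788) and the dimmest CXCL10 probe (difference 0.69, adjusted p = 0.0392), which was well above background on only 6 of 12 supplement and 5 of 24 pasture arrays. The brightest probes of 9 genes gave 0 calls, and 2 of them had an unadjusted p under 0.05. For CXCL12 the brightest probe differed by 0.18 (adjusted p = 0.32) and for CXCL10 by 0.32 (adjusted p = 0.0868). Each slide with LD arrays held 1 diet only. With slide as a random block 0 member probes and 1 of all 34227 probes passed, and with the day as a block 0 member probes and 2306 of all probes. The kill of each LD sample is not given in the labels and was not a term of the fit.

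Genes that varied with each chemokine inside a depot were sought over the 60 fat arrays, after the mean of each depot and breed was subtracted. Of 10401 named genes, those closest to CXCL2 were GRO1, the bovine CXCL1 (r = 0.916, Spearman rho 0.90), NFKBIZ, a regulator in the NF-kB pathway (r = 0.81), and CXCL3 (r = 0.762). CXCL3 in turn was closest to GRO1 (r = 0.792). The CXCL2 probe used was nearer to GRO1 than to the second CXCL2 probe (r = 0.713). Signal that the probes of these near-identical genes may share was not tested. CCL21 was closest to RELN (r = 0.772), MMRN1 (r = 0.65) and PROX1 (r = 0.646), of which all 3 are known from lymphatic endothelium. CCL2 varied most with PLOD1 (r = 0.767), PLAU (r = 0.753) and PLAUR (r = 0.708), the last 2 being urokinase and its receptor. CCL5 was closest to CXCR6 (r = 0.696), LTB (r = 0.657) and IKZF3 (r = 0.652), genes of lymphocytes.

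CCL8 was closest to CNP (r = 0.666), CXCL8 (r = 0.638) and NFKBIZ (r = 0.638). CXCL10 followed SLC39A3 (r = 0.755), the interferon-induced IFI44 (r = 0.74) and RHOBTB2 (r = 0.729), and its r with SLC39A3 was 0.613 without the 2 farthest arrays. CXCL14 was closest to SPP2, KERA and C1QTNF7 (r from 0.649 to 0.667, and from 0.516 to 0.567 without the 2 farthest arrays), CXCL12 to GFRA2, PPP1R18 and LOC515755 (r from 0.611 to 0.636), and CXCL5 to ELMO3, RHOU and MS4A8 (r from 0.764 to 0.78). Between members, CCL2 and CCL8 had r = 0.613. These correlations share arrays, slides and scan days, and are a description with no test.

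The receptors of the pathway were tested for 10 of 18 listed genes. In Omen against SC 9 of 10 rose and 0 fell (background 45.7%, with 20.5% higher), with a median of 0.95 against -0.031 over all tested probes. The rise was not particular to Omen. In Kid 6 rose and 0 fell (median 0.83, background 41.7%, with 19.4% higher). In Inter 4 rose and 1 fell (median 0.71, background 48.8%, with 21.6% higher). Kid and Omen differed in 2 of 10 (background 12.1%). In IMF 3 rose and 2 fell (median 0.26), a share of 5 in 10 that is below the background of 64.2%. CCR1, a receptor of CCL5, fell in IMF by 1.44 and rose in Omen by 0.83, and CCR7, the receptor of CCL21, fell in IMF by 0.97 and rose in Omen by 1.21. CXCR2 differed from SC by 0.59 in IMF and 0.04 in Omen, without passing, and CXCR3 rose by 1.16 in IMF. The Kid array with high interferon genes also had the highest sum of receptors, 27.1 against a Kid median of 3.20. Of the 5 atypical receptors, which bind chemokines without signalling to migration, 2 fell in IMF, ACKR3 and ACKR1 (differences -1.77 and -1.01), and 0 rose.

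Among 18 measured of 27 other listed chemokines, 2 rose and 7 fell in IMF against SC, with a median of -0.12, so that fewer passed than among all tested probes (64.2%). The largest falls were those of GRO1 (CXCL1, difference -2.14, SE 0.27, adjusted p = 2.69e-07) and CCL24 (difference -1.70, adjusted p = 7.35e-05), an eosinophil attractant. Against SC, 7 of them rose and 2 fell in Omen (median 0.54, background 45.7%), and GRO1 rose by 1.82. Of 11 measured of 14 NF-kB response genes, 8 rose and 0 fell in Omen (median 0.90, with 20.5% of all probes higher), against 4 and 4 in IMF (median -0.55, with 64.2% of all probes past the threshold), where PTGS2 rose by 1.32 and VCAM1 fell by 1.25. Interferon response genes (8 of 12) fell in IMF in 7 cases, with RSAD2 at -2.46 and OAS1X at -2.28, and 0 rose, where 33% of all probes fell. In Omen 1 of them rose and 2 fell, a smaller share than the 45.7% of all probes.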

How the data were processed

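One array was read per sample, and samples were grouped by tissue, breed and diet from the labels. The authors deposited, for each array, intensity values from Feature Extraction 10.7.3.1 (the processed signal, with the background subtracted and no scaling between arrays) and log2 values of 34227 probes in the series matrix. The latter equal log2 of the median signal minus the median background, floored at 1, within 0.001 in all 3285792 values, so they carry no normalisation between arrays. The array design is annotated on an older bovine assembly, and no coordinates are given. Agilent array depth is signal over background, given per tissue in the results. The mixed model normalisation named in the methods was not repeated.

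Here the processed signals were taken to log2 and centred on the 75th percentile of each array (the level). Outlier spots (8846 probe values) were left out, spots of a probe were averaged, and no dim probes were removed. No saturated spots were found (0). Probes were named by accession (19903 of the tested) or by the study's probe lists (4441), in all 62.7% of them, and 2749 of the 2899 named by both had one name. Tests used limma 3.58.1 (lmFit, eBayes) and statmod 1.5.0 under R 4.3.3, with data.table (version 1.17.8) to read files and Benjamini-Hochberg adjustment over all probes of the fit and a threshold of 0.05. Each pair of tissues was fitted on its own arrays. The 60 fat arrays were fitted with depot and breed. Breed in LD was fitted with diet, and diet with breed. The methods were tested on simulated data.

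The 10 genes and all gene lists were chosen with earlier results of these data known. Named genes are the 10 members by the brightest tested probe (CXCL5 by its untested probe), the 2 genes per list with the largest IMF minus SC difference past the threshold, the receptors of the members, and the 3 genes with the highest r to each member among those above background on at least 50% of the fat arrays.

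Alternatives were quantile normalization, centring on the array mean, normexp with an offset of 50 on the median signal, the deposited log2 values, all non-control probes, a filter on dim probes, the methods' t-test, breed as a covariate, the spread from all 96 arrays, slide or scan day as a block, the replicate number as a block, LD on pasture alone, other probes of a gene, and muscle probes over 8-fold. Replicate numbers equal the position on the slide on all 96 arrays and do not pair animals. Leaving out arrays that stood apart was added after the data were seen.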

Additional observations from a re-analysis of the deposited data

How the results depend on the processing

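The number of member probes past the threshold stayed within 1.5 times its first value in 256 of 272 recalculations, and of 1768 recalculations for single genes 1653 kept their direction and their side of the threshold, 78 lost the call, 17 gained one and 20 changed sign. Counts moved mostly with scan day and slide. When day was a block among the compared arrays only, IMF minus SC gave 11 probes (17 before), IMF minus Kid 1 (16) and Omen minus SC 1 (10). Inter minus Omen gave 2 (8), Kid minus Omen 2 (7) and diet in LD 0 (2). Calls over all 34227 tested probes fell in these fits too. They were 6847 (21957 before) for IMF minus SC, 1694 (19115) for IMF minus Kid and 1511 (15654) for Omen minus SC. They were 485 (4642) for Inter minus Omen, 281 (4150) for Kid minus Omen and 2306 (3850) for diet in LD. Both comparisons with SC rest there on 1 SC array of the shared day, and IMF minus Kid on 1 Kid array. With scan day as a block over all 96 arrays IMF minus Inter gave 9 (16), and CXCL3 there turned to 0.22. Over all probes this comparison gave 18134 (21474). With slide as a random block Inter minus Kid gave 2 (6), Inter minus Omen 5 (8), breeds in LD 0 (6) and diet in LD 0 (2). Over all probes these were 1260 (5276), 2128 (4642), 15 (8649) and 1 (3850) in that order. Breeds in LD gave 11 with normexp, 10 with the deposited table and 3 with LD on pasture alone. Diet in LD gave 0 and 1 with the first 2 of these. Over all probes, breeds in LD gave 19965, 22870 and 5044 in that order (8649 before), and diet in LD 1129 and 5923 (3850). The replicate block, the position on the slide, gave 18 for IMF minus SC, 11 for Inter minus SC, 12 for Kid minus SC, 9 for Omen minus SC and 5 for breeds in LD. It changed no count by over 1.5 times, and it ended the calls of CXCL2 in Inter minus SC (adjusted p = 0.0543) and of CXCL10 between breeds in LD (adjusted p = 0.059).

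Of the 20 changes of sign the largest number came from one setting, the deposited table, which is not scaled between arrays and in which the median of all probes shifts by 0.63 in IMF minus SC and 0.82 in Omen minus SC. There CXCL10 was 0.33 in IMF minus LD, 0.37 in Inter minus LD and 0.79 in Inter minus SC; CXCL2 was 0.32 and CCL5 0.55 in Inter minus SC; CXCL2 was 0.64 and CCL8 0.20 in Kid minus SC; and CXCL12 was 0.42 and CCL21 0.44 in Omen minus SC. With normexp, which moved the median of all probes by -0.23 in IMF minus SC, CXCL2 was -0.22 in IMF minus LD, CCL21 -0.08 in Inter minus SC and CXCL10 -0.14 in IMF minus SC. CXCL10 in IMF minus SC was 0.00 with quantile normalization, -0.32 with the day as a block (CCL21 there -0.53) and -0.84 with a dimmer probe, mostly not well above background. In Omen minus SC CXCL10 was -0.06 with the day as a block and CXCL3 -0.03 with slide as a block. CXCL2 in Kid minus SC was 0.05 with its other probe. Apart from CXCL2 and CXCL10 against LD, CXCL2 in Inter minus SC, CXCL12 in Omen minus SC and CXCL3 in IMF minus Inter, these values had not passed the threshold to begin with. The causes were not tested.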

Other observations

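Some genes outside the rule for named genes stood out in the visceral depots and were picked after their values were seen. CCL11, an eosinophil attractant, was above SC by 3.54 in Omen and by 2.40 in Kid, both past the threshold of the limma fit, whereas IMF differed by -0.06 and Inter by -0.56 without passing. CXCL8, the neutrophil attractant known as interleukin 8, was above SC by 3.11 in Omen, 1.52 in Inter and 1.24 in Kid, all past the threshold. IL6 was above SC by 4.05 in Omen and PTGS2 by 2.38, and in Kid IL6 differed by 1.4 without passing. CCL19, which shares the receptor CCR7 with CCL21, was above SC by 1.92 in Omen and 1.13 in Kid, while CCL21 was below SC by a difference of -1.53 in Kid. CCL26 differed from SC by 1.39 in IMF, -1.61 in Kid and -1.71 in Omen, all past the threshold. The calls of these genes were not repeated with scan day or slide as a block. Scan day and depot cannot be told apart in IMF, Inter or Omen against SC.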
